A study of Mus musculus with 12 samples.

Results

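Alternative last exons were examined in the transcript catalogues of BV-2 cells, an immortalised mouse microglial line. A last exon was a line of the type TTS (transcription termination site), taken as distinct by its gene, chromosome and splice acceptor, the position at which the exon begins. The acceptor is the pattern field of the files, and it lay at the 5′ boundary of the exon in 180128 of 180128 lines. A gene was kept when it had 2 or more distinct last exons over the 12 libraries. This left 30534 of 35867 distinct last exons (85.1%), in 8942 of 14275 listed genes (62.6%). Members were chosen by presence and position alone, so their number above 1 per gene is not a finding. The libraries fall into 4 groups of 3: control, LPS, NMN, and both agents (LPS+NMN). LPS is lipopolysaccharide, from the outer membrane of Gram-negative bacteria, an inflammatory stimulus. NMN is nicotinamide mononucleotide, from which cells make NAD. All groups are the same cell line, with no transgene, deletion or agent named as shared between them. The series set out to learn how NMN protects these cells from LPS-induced ferroptosis, an iron-dependent death by lipid peroxidation, and its main comparison is LPS+NMN with LPS. The sources used here state neither doses nor times. They also do not say whether the 3 libraries of a group are separate cultures, so p-values here measure no more than how far these libraries spread, and that spread may be technical.

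A last exon carries the end of the transcript. When a gene can splice to more than 1 terminal exon, or can end transcription early inside an intron, its transcripts differ in their 3′ untranslated region and often in the C terminus of the protein. A last exon has a splice acceptor but no donor, and transcripts are cut and polyadenylated in it after a signal, most often AATAAA. In immune cells the classical case is the choice between secreted and membrane forms of the same protein. The catalogues list which last exons were found in a library. They hold no read count and no level, so a last exon that is missing from a library may have been present below what was found, and sequencing depth is unknown.

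Sequences of selected results are given first. For 4 genes that exchanged 1 last exon for another between groups, the lines show the first 30 bases of each last exon as annotated by GENCODE M21 on GRCm38, 5′ to 3′ on the strand of the gene, with coding bases in capitals. In Fbh1, Parp1 and Rps12, 1 of the exchanged exons begins with coding bases and the other with bases that are not coding in the matched transcript. For the LPS exon of Rps12 that transcript has a retained intron, and whether the bases code in another transcript was not examined. In Tent2 both begin with coding bases, which differ. The lines are labelled by the groups compared. The Parp1 exon of the NMN libraries was also in 2 LPS and 2 LPS+NMN libraries, and that of the control libraries in 1 of each. The control exons of Tent2 and Rps12 were also in all libraries of the groups that did not switch.
Fbh1, control libraries (chr2:11742779-11742808, minus): gagactctgagttcaatcacagcatctctg
Fbh1, all treated libraries (chr2:11743004-11743033, minus): AGCAACAGGAAGGAAAACAAGGGTGGCTAC
Tent2, control libraries (chr13:93147636-93147665, minus): TCATGGCAGAGATTGAAAAACAAGAGAGAT
Tent2, NMN libraries (chr13:93158184-93158213, minus): GGAATATACAAATCTGAGCATTCCCACCAT
Parp1, control libraries (chr1:180601072-180601101, plus): tgatagacatgggatagccaaaagaaggga
Parp1, NMN libraries (chr1:180600450-180600479, plus): GTACATTGTCTACGACATTGCTCAGGTGAA
Rps12, control libraries (chr10:23785244-23785273, minus): GACTATGGCAAAGAATCTCAGGCCAAGGAT
Rps12, LPS libraries (chr10:23785648-23785677, minus): gttgatgacaacaagaaactaggggaatgg

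For the 2 genes whose last exon kept its acceptor and changed its end, the lines show the 30 bases up to each listed end, with the signal AATAAA in capitals where it is present. These bases are untranslated.
Rtp4, end in control libraries (chr16:23614193-23614222, plus): tttgtgAATAAActctatttgttggaagaa
Rtp4, end in treated libraries (chr16:23613707-23613736, plus): ttgattaAATAAAtcttgattataactaac
Isg20, end in control libraries (chr7:78920367-78920396, plus): ttagtAATAAAtggctttgattttgtctaa
Isg20, end in treated libraries (chr7:78920320-78920349, plus): aacaacaacaacaacaacaacagcaaaacc

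The motifs AATAAA and ATTAAA were searched on the strand of the gene. Of 58793 protein-coding transcript ends in GENCODE M21, 44.1% held at least 1 of them in the last 30 bases (35.5% AATAAA, 9.74% ATTAAA). The reverse complements TTTATT and TTTAAT, searched in the same bases, were in 5.46% of ends. The 2 Rtp4 ends held AATAAA starting 24 and 23 bases before the end, and the longer Isg20 end 25 bases before it. The shorter Isg20 end held neither motif in these 30 bases.

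Genes with alternative last exons had a median of 3 and a mean of 3.41 distinct last exons over the 12 libraries. Exactly 2 were listed for 3582 genes (40.1%), 5 or more for 1796 (20.1%) and 10 or more for 96. First exons, which the files list in the same way, were more numerous: 11033 genes (77.3%) had 2 or more distinct first exons, with a median of 4 and a mean of 4.32. Within a library a listed gene had 1.24 ± 0.00686 last exons and 1.66 ± 0.0185 first exons on average (SD over 12 libraries). Last exons were fewer in 12 of 12 libraries, with a mean difference of -0.425 ± 0.0142 (exact paired permutation test, two-sided, p = 0.000488, the smallest it can give with 12 libraries). Alternative ends were thus listed for fewer genes, and in smaller number, than alternative starts.

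**Figure D1:**
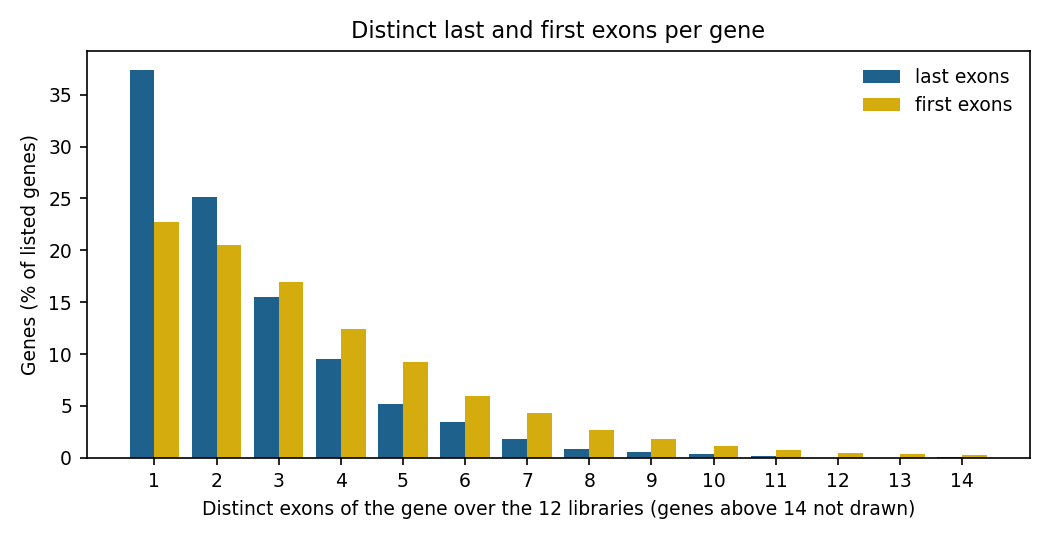
Share of listed genes (y axis, % of 14275 genes) by the number of distinct last exons (blue) or first exons (yellow) over the 12 libraries (x axis, drawn up to 14). From 3 exons up, the bars for last exons lie below those for first exons: 3582 genes had 2 distinct last exons and 2921 had 2 distinct first exons, while 498 genes had 10 or more first exons against 96 with 10 or more last exons.

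The gene with the most distinct last exons was Lpl, lipoprotein lipase, which releases fatty acids from circulating triglycerides. It had 29, of which 28 began at different acceptors within 176 bases (chromosome 8, 69358123 to 69358298, plus strand, positions as the files give them on an assembly that is not named). In 35 of 36 lines these 28 exons ended at the same base, 69359586, and each was in 1 to 3 libraries. The other Lpl last exon, 216 bases long, was in 12 of 12. Next came Wwox, an oxidoreductase encoded by a very long gene, with 20, Lrmda with 19, Ahnak, a giant scaffold protein, and Scyl2 with 18 each, and Arhgap26, Marf1 and Pkd1l2 with 16 each. In 4 of these 8 genes no last exon was in more than 8 libraries. In 1 library Wwox and Ahnak listed up to 8 of their last exons, Lpl and Lrmda 7, Scyl2 6, and Arhgap26, Marf1 and Pkd1l2 4. Over all 8942 genes, of which 3582 had exactly 2 last exons, 4398 (49.2%) never listed 2 in the same library. Of these 4398 genes, 2575 were listed in all 12.

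Last exons were most frequent at 1 library and least frequent at 8, with a smaller rise from there to 12. Of 30534, 14024 (45.9%) were in 1 library alone and 2966 (9.71%) in all 12, and the other numbers of libraries held between 746 (8 libraries) and 3391 (2 libraries). For first exons of genes with 2 or more, 44.4% were in 1 library and 17.8% in all 12. Only 536 genes (5.99%) had 2 or more last exons in every library, 1745 (19.5%) had 1, and 6661 (74.5%) had none. Libraries of the same group shared 49.4 to 51.1% of the last exons listed in either, and libraries of different groups 48.2 to 51.2%. These ranges overlap.

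The annotation separated recurrent from sporadic last exons. Because the positions are not on GRCm38, each gene was laid over GENCODE M21 by the spacing of its exon boundaries, which placed 7825 genes. Of all 30534 last exons, 13391 (43.9%) began at the acceptor of an annotated last exon, 5478 (17.9%) at the acceptor of an annotated internal exon, and 4926 (16.1%) at no annotated acceptor. On the strand opposite to the annotated gene lay 4475 (14.7%), 1947 were on the right strand of a gene that could not be placed, and 317 were in genes with no annotated strand. Among placed last exons in all 12 libraries, 98.8% were annotated last exons, against 23.0% of those in 1 library. Last exons at internal acceptors were in 1 library alone in 72.4% of cases and had a median length of 130 bases, against 16.8% and 597 bases for annotated last exons. Of last exons in genes with an annotated strand, 22.3% of those in 1 library and 0.645% of those in all 12 lay on the opposite strand. A last exon on the opposite strand belongs to another transcript than that of the named gene or has the wrong strand in the catalogue, and the sources used here do not say whether reads were assigned by strand.

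**Figure D2:**
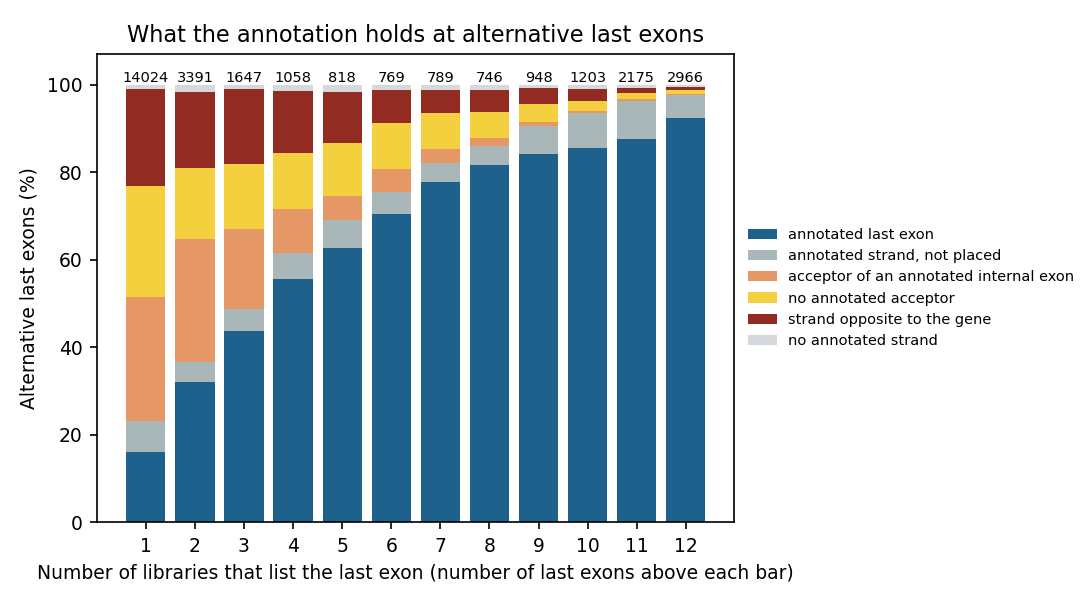
Share of alternative last exons (y axis, %) by what GENCODE M21 holds at their acceptor, for last exons found in 1 to 12 libraries (x axis), with the number of last exons above each bar. Annotated last exons (blue) make up 16.1% of those found in 1 library and 92.4% of those found in 12, and last exons on the opposite strand (dark red) 22.1% and 0.641%.

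Annotated last exons belonged mostly to protein-coding transcripts (10300, 76.9%). Those of transcripts with a retained intron (609) were in a median of 1 library, those of transcripts marked for nonsense-mediated decay (541) in 3, and those of coding transcripts in 9. Median length was greater in more recurrent last exons, from a median of 224 bases in 1 library to 1219 in 11 and 875 in 12. By position within the gene, the most distal last exon on its strand was in all 12 libraries in 16.6% of cases, the more proximal ones in 7.82%. Of 28033 last exons with another one on the same strand of the gene, 10158 (36.2%) overlapped it. A median length is over the libraries that list the exon, and these shares describe the catalogues, in which exons of the same gene are not independent.

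Each library listed 10593 to 11103 alternative last exons, and 1873 to 2027 genes with 2 or more of them. Markers of microglia were listed in all 12 libraries for 11 of 14 genes, with Sall1 in none. Of the other cell types 1 of 5 astrocyte, 3 of 5 oligodendrocyte, 1 of 5 neuronal and 0 of 5 T and B cell markers were in all 12. The labels give the cell type as macroglia, while BV-2 is a microglial line and the markers listed in most libraries were those of microglia. Group totals overlapped for most measures, and 3 of 36 exact permutation tests reached 0.1, the smallest p that 3 against 3 libraries allow. One was the share of listed genes with 2 or more last exons, which was 25.0% ± 0.340 in control and 24.2% ± 0.278 in LPS libraries (SD, n = 3; exact permutation p = 0.1). Another was the same share in LPS+NMN libraries, 24.2% ± 0.404 (exact permutation p = 0.1 against control). The last was the share of coding transcripts among annotated last exons. It was 84.1% ± 0.494 in control and 84.9% ± 0.301 in LPS libraries (SD, n = 3, exact permutation p = 0.1). With no difference between groups a share of 0.1 of such tests would reach this p, and 3 of 36 is not above that share.

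LPS was compared with control to describe the response of the cells without NMN. Genes that gained last exons with LPS were led by Ntng2, a membrane-anchored netrin, and H2-M2, a class I histocompatibility gene, neither of which had a last exon in a control library. Genes that lost them were led by Cdc34, a ubiquitin-conjugating enzyme, and Cdk5rap2, a centrosome protein, which kept 1 last exon each in every LPS library. Limma, on log2(last exons + 1), called 12 of 5797 tested genes with alternative last exons higher and 8 lower at an adjusted p below 0.05. Over all 6056 genes tested the same 12 (0.198%) and 8 (0.132%) were called. The median difference was 0, over these genes and over all. On simulated data false calls were above the rate aimed at. Calls by number are therefore weak evidence, here and in the comparisons below, whatever their adjusted p. The calls depended on the settings: without trend and robust moderation limma called 37 genes, of which 2, Ntng2 and H2-M2, were among the 20, and with at least 2 last exons required in 3 libraries it called 3, all among the 20. Of the 20 called genes, 12 had groups that did not overlap, and 11 had no last exon in at least 1 library, so that a change in the number is there partly the entry of the gene into the catalogue. In bulk RNA fewer cells with a transcript and less transcript per cell cannot be told apart.

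Ntng2 had no last exon in the 3 control libraries and 3 in each LPS library. It had 3, 1 and 3 in NMN and 3, 4 and 3 in LPS+NMN libraries. The log2 difference of LPS from control was 2.00 ± 0.27 (SE, limma adjusted p = 2.03e-09), and it was called in 21 of 21 alternative settings. The 3 acceptors listed with LPS are those of annotated last exons, and the coding one, of 233 to 796 bases (chromosome 2, 29085065, minus strand), was in all 9 treated libraries. H2-M2 had 0 in each control library and 2, 2 and 3 with LPS (1.72 ± 0.27, limma adjusted p = 5.96e-07, 21 of 21 settings). It had 2 in each NMN and LPS+NMN library. All treated libraries thus lay above all controls in both genes.

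Olfr132 and Olfr129, olfactory receptor genes, and Tnfsf12, the cytokine TWEAK, were the other genes with most gain by the naming rule. Tnfsf12 had 1 last exon in each control library and 4, 4 and 3 with LPS (1.21 ± 0.27, limma adjusted p = 0.00417), with the call lost under the stricter filter (0.151) and without moderation (0.128). It had 1, 3 and 1 with NMN and 1, 3 and 2 with LPS+NMN, which overlap both other groups. Olfr132 had 0, 0 and 1 in control and 2, 4 and 2 in LPS libraries (1.50 ± 0.28, limma adjusted p = 7.74e-05), with the call lost in the same 2 settings (0.151 and 0.232). Olfr129 had 0, 1 and 0 against 2 in each, with its call lost also without control replicate 1 (limma adjusted p = 0.134) or 3 (0.120). H2-M2 and the olfactory receptors belong to families of similar genes, and the sources used here do not say how shared reads were divided.

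Cdc34 had 5 last exons in each control library and 1 in each LPS library (-1.58 ± 0.27 on the log2 scale, limma adjusted p = 1.03e-05, called in 19 of 21 settings). It had 1, 5 and 1 with NMN and 1 in each LPS+NMN library. The 4 that came and went did so together, in the same 4 libraries, and 3 of them start within 8 bases of each other (chromosome 10, 79523683, 79523687 and 79523690, plus strand). All 5 are annotated last exons, and the constant one, of 136 bases, ends a coding transcript. With acceptors within 10 bases counted as 1, the difference was -1.0 (limma adjusted p = 0.0628), and without moderation the adjusted p by limma was 0.0813. Cdk5rap2 had 4, 4 and 3 in control, 1 in each LPS, 4, 1 and 1 in NMN and 3, 2 and 3 in LPS+NMN libraries (-1.21 ± 0.27 for LPS against control, limma adjusted p = 0.00406). An exon of 125 bases of this gene was in all 3 control and no treated library. Without control replicate 1 its adjusted p by limma was 0.0581.

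Xrcc3, a recombination repair protein, had 4, 3 and 5 last exons in control and 1, 1 and 2 in LPS libraries (-1.11 ± 0.27, limma adjusted p = 0.0118). Its call was lost without control replicate 1 or 3 or LPS replicate 1 or 2 (limma adjusted p between 0.0717 and 0.156). Miga1, an outer membrane protein of mitochondria, had 7, 6 and 6 against 4, 4 and 1 (limma adjusted p = 0.0118), and without LPS replicate 3, the library with 1, the adjusted p by limma was 0.549, and without control replicate 1 it was 0.124. Fahd2a had 4 in each control and 3, 1 and 1 in LPS libraries, with an adjusted p by limma just under the threshold, 0.0498, and was called in 9 of 21 settings. That call was lost without any 1 control library, LPS replicate 2 or 3, or LPS+NMN replicate 1 or 3 (limma adjusted p between 0.0620 and 0.418). The groups did not overlap in any of these 3 genes. Without control replicate 1 limma called 8 genes higher and 3 lower in place of 12 and 8.

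**Figure D3:**
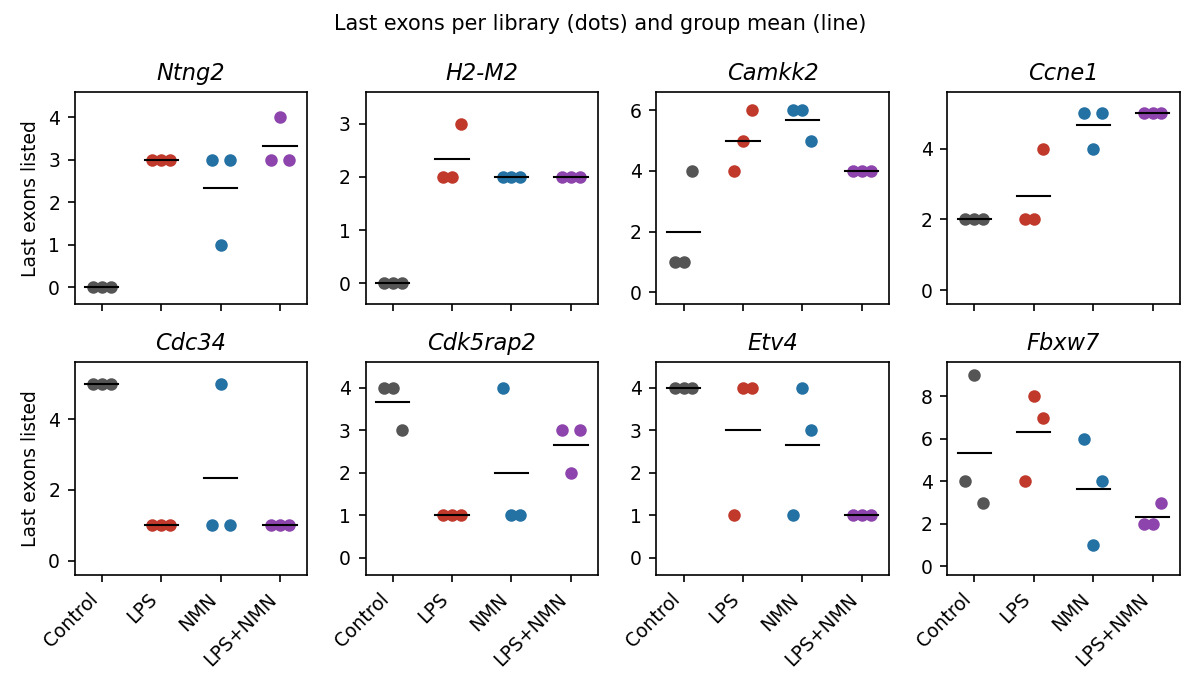
Number of last exons listed per library (y axis, dots) for 8 genes that limma called in at least 1 comparison, by group (x axis), with the mean of 3 libraries as a line. Ntng2 and H2-M2 are at 0 in the 3 control libraries only, Cdc34 has 5 in the 3 control libraries and in 1 NMN library and 1 in the others, and Fbxw7 has 2, 2 and 3 in LPS+NMN libraries against 4, 8 and 7 in LPS libraries.

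Single last exons were compared by presence. In all 3 LPS and no control libraries were 169 last exons (0.751% of the 22514 listed in these 6), and in all 3 control and no LPS libraries 132 (0.586%). Over all distinct last exons the shares were 0.647% and 0.501%, and over all first exons 0.665% and 0.493%, so alternative last exons did not stand out from either. With a control library left out, the rule asked for 2 control but 3 LPS libraries. It then gave 282 in LPS and 316 in control libraries alone without control replicate 1. The counts were 268 and 330 without control replicate 2, and 274 and 362 without control replicate 3. Since the rule was unequal, these counts cannot show which side is larger. No test of a single exon was made, since 3 against 3 libraries cannot give an exact p under 0.1. Of the 169, 111 were annotated last exons, 20 were on the opposite strand and 20 lay in genes with no alternative last exon listed in control. Of the 132, 101 were annotated and 5 lay in genes with none listed in LPS libraries.

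A switch was counted where a gene had 1 last exon in all 3 libraries of a group and none of the other, and another with the reverse pattern. LPS against control gave 21 switching genes (0.235% of 8942), and first exons gave 18 of 11033 (0.163%). In 12 of the 21 both last exons lay on the annotated strand, with the LPS exon upstream in 6 and downstream in 6, and 9 of those 12 exchanged annotated last exons. In the other 9 genes 1 of the exons was on the opposite strand, so these are no choice between ends of the same transcript. Dipk1a and Hs6st1, a heparan sulfate sulfotransferase, are of this kind.

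Fbh1, a DNA helicase of the F-box family, switched cleanly. An exon of 236 bases (chromosome 2, acceptor 11747619, minus strand), annotated in a transcript without a coding sequence, was in all 3 control and no treated library. The coding last exon of 459 to 462 bases, whose acceptor lies 225 bases upstream (11747844), was in all 9 treated and no control library. The exons end within 1 base of each other, so it is the acceptor and not the end that differed. Ndufb1, matched in the annotation through a synonym to Ndufb1-ps and annotated there with transcripts that do not code, showed the same pattern with exons 8051 bases apart: 121 bases in control and 514 in treated libraries. In both genes LPS, NMN and LPS+NMN libraries were alike and each treatment was set against the same 3 control libraries.

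Erfe, erythroferrone, a hormone of iron metabolism, had the upstream of 2 annotated coding last exons in all 3 LPS, 0 NMN and 1 LPS+NMN libraries. The downstream one was in 3 control, 3 NMN and 2 LPS+NMN libraries. Mtcp1 exchanged its annotated last exon of 688 bases for one at no annotated acceptor, 5913 bases downstream, in the 3 LPS libraries; 1 NMN and 1 LPS+NMN library listed that exon too. Rps12, a protein of the small ribosomal subunit, listed its coding last exon of 91 bases in the other 9 libraries. The 3 LPS libraries alone listed an exon of 102 to 150 bases. Its acceptor is that of a last exon of 52 bases, annotated in a transcript with a retained intron, so the listed exon is longer than that one. Whether a coding internal exon begins at the same acceptor was not examined, so the listing may not be a true end of the transcript. Rps12 has many processed copies in the genome, and reads could have been shared with them.

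**Figure D4:**
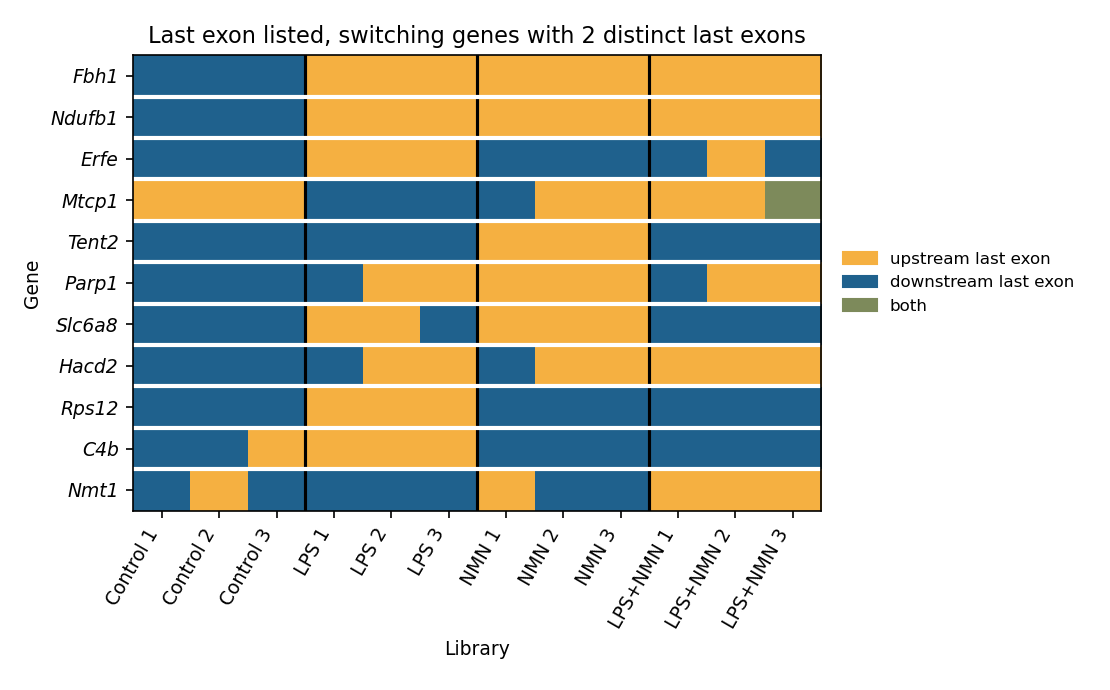
Which of 2 last exons was listed in each of the 12 libraries (x axis) for 11 switching genes (y axis). The upstream exon is in orange, the downstream one in blue and both in green. The 11 are those described in the text that have 2 distinct last exons, both on the annotated strand. Other genes of this kind, Ralb, Rbm12b1, Rpl8, Zfp771 and Zfp873, are not drawn. Fbh1 and Ndufb1 divide the 3 control from the 9 treated libraries, Tent2 sets the 3 NMN libraries apart and Rps12 the 3 LPS libraries. Of the 11 genes drawn, only Mtcp1, in LPS+NMN replicate 3, lists both in the same library.

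The effect of NMN alone was described against the same control libraries. Ntng2, H2-M2, Stfa3 and Camkk2 again had more last exons than control, and Mbtps2 and Glrx3 had fewer. Limma called 9 genes higher (0.149% of 6056 tested) and 3 lower (0.0495%), all with alternative last exons, with a median difference of 0. Of the 12, 7 had groups that did not overlap and 8 had no last exon in at least 1 library. Leaving out NMN replicate 1 raised the calls to 13 and 6. Without trend and robust moderation limma called 33 genes, of which 2, Ntng2 and H2-M2, were among the 12.

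Camkk2, a calcium-dependent kinase that activates AMPK, had 1, 1 and 4 last exons in control and 6, 6 and 5 with NMN (1.29 ± 0.25 on the log2 scale, limma adjusted p = 0.000539). It had 4, 5 and 6 with LPS and 4 in each LPS+NMN library. A coding last exon of this gene, listed over 25 bases, was in all 9 treated and no control library. Control replicate 3 listed 4 and the other controls 1, and without control replicate 1 the adjusted p by limma was 0.0568. Stfa3, a cysteine protease inhibitor, had none in control and 2, 1 and 1 with NMN (1.19 ± 0.26, limma adjusted p = 0.00455), and its call was lost without NMN replicate 1 (0.364), LPS replicate 2 (0.0588) or LPS+NMN replicate 3 (0.0543). The Stfa3 call was also lost with only the 2 groups compared in the fit (0.632), with acceptors within 10 bases merged (difference 1.0, limma adjusted p = 0.324), under the stricter filter (0.223) and without moderation (0.0555). Dnmbp, a scaffold protein of the cytoskeleton, had 1, 2 and 1 against 3, 6 and 3 (1.07 ± 0.27, limma adjusted p = 0.0369), but 7 of its 10 last exons lie on the opposite strand. Without control replicate 1 or 3 or NMN replicate 2 the adjusted p of Dnmbp by limma was between 0.159 and 0.548.

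Mbtps2, the site-2 protease that releases membrane-bound transcription factors, had 2, 5 and 4 last exons in control and 1 in each NMN library (-1.16 ± 0.27, limma adjusted p = 0.0132). It had 1, 1 and 5 with LPS and 7, 3 and 3 with LPS+NMN, and 10 of its 14 last exons were in 1 library alone. Glrx3, a glutaredoxin of iron-sulfur cluster handling, had 4 in each control and 2, 1 and 1 in NMN libraries (-1.13 ± 0.27, limma adjusted p = 0.0181). It was called in 13 of 21 settings, and not without any 1 control library or NMN replicate 2 or 3 (limma adjusted p between 0.0603 and 0.177). Mbtps2 was called in 14 of 20, and not without control replicate 2 or 3 or NMN replicate 2 or 3 (limma adjusted p between 0.0591 and 0.229). Ntng2 and H2-M2 were called in 21 of 21 settings here as well.

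In presence, 111 last exons were in all 3 NMN and no control libraries (0.493%; 0.436% of all last exons and 0.573% of all first exons) and 95 the reverse (0.422%; 0.367% and 0.378%). Without control replicate 1, 2 or 3 the control side was the larger, with 225 against 272, 218 against 279 and 219 against 299. The rule then asked for 2 control but 3 NMN libraries, so these counts cannot show which side is larger. Switching genes numbered 9 (0.101%), against 12 for first exons (0.109%). All 9 had both last exons on the annotated strand, with the NMN exon upstream in 7. Tent2, a cytoplasmic poly(A) polymerase, ended at an upstream coding last exon of 390 bases in the 3 NMN libraries and in no other, and at a downstream one of 1383 to 1734 bases in the other 9, with acceptors 10548 bases apart. Parp1, which consumes NAD to build poly(ADP-ribose), listed an exon of 181 bases in 3 control, 1 LPS, 0 NMN and 1 LPS+NMN libraries. The exon of 805 bases, whose acceptor lies 622 bases upstream and whose end lies within 2 bases, was in 0 control, 2 LPS, 3 NMN and 2 LPS+NMN libraries. The listed Parp1 exon was thus the longer one in 7 of 9 treated libraries. Slc6a8, the creatine transporter, had its coding last exon in 3 control, 1 LPS, 0 NMN and 3 LPS+NMN libraries. Atl3, a GTPase that shapes the endoplasmic reticulum, had an annotated last exon of 5702 to 5725 bases in the 3 NMN and 3 LPS+NMN libraries, 1 LPS and no control library. In control its last exon began 3817 bases further downstream and ended at the same base.

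Cells given both agents were then set against the same 3 controls. Limma called 13 genes with more last exons (0.215% of 6056) and 4 with fewer (0.0661%), and the median difference was 0. Ntng2 (2.11 ± 0.27, SE, limma adjusted p = 1.04e-10), H2-M2 (1.58 ± 0.27, adjusted p = 8.86e-06) and Stfa3 (1.19 ± 0.26, adjusted p = 0.00248) had more and Cdc34 fewer (-1.58 ± 0.27, adjusted p = 8.86e-06). Stfa3 had 1, 1 and 2 last exons in LPS+NMN libraries, and without replicate 3 its adjusted p by limma was 0.405. It was 0.620 with only the 2 groups compared, 0.380 with merged acceptors and 0.156 under the stricter filter. The Cdc34 call was lost with merged acceptors (limma adjusted p = 0.0867) and without moderation (0.0831). Without moderation limma called 38 genes, of which 4 were among the 17. Of the 17 called, 6 had groups that did not overlap and 11 had no last exon in at least 1 library. Without control replicate 1 limma called 8 higher and 2 lower, and without control replicate 2 it called 9 and 2.

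Ccne1, cyclin E1, which drives entry into S phase, had 2 last exons in each control library and 5 in each LPS+NMN library (1.00 ± 0.26, limma adjusted p = 0.0393). With NMN it had 5, 4 and 5, and with LPS 2, 2 and 4. An annotated coding last exon of 654 bases (chromosome 7, 37798062, minus strand) was in the 3 NMN, the 3 LPS+NMN, 1 LPS and no control library. Leaving out any 1 control or LPS+NMN library took the adjusted p by limma above the threshold, to between 0.0526 and 0.198. Etv4, an ETS transcription factor, had 4 in each control and 1 in each LPS+NMN library (-1.32 ± 0.27, limma adjusted p = 0.000675), with the call lost under the stricter filter (0.159) and without moderation (0.301). With LPS it had 1, 4 and 4 and with NMN 1, 4 and 3. In the 6 libraries with 4, the same 3 exons of 16 to 165 bases were listed together, and in no other library.

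By presence, 150 last exons were in all 3 LPS+NMN and no control libraries (0.665%; 0.585% of all last exons and 0.685% of all first exons) and 121 the reverse (0.537%; 0.465% and 0.464%). Without control replicate 1, 2 or 3 the control side was the larger, with 264 against 322, 264 against 305 and 262 against 346. The rule then asked for 2 control but 3 LPS+NMN libraries, so these counts cannot show which side is larger. Switching genes numbered 20 (0.224%), against 9 for first exons (0.0816%), and 13 of them had both exons on the annotated strand. Hacd2, an enzyme of very long fatty acid synthesis, had its annotated last exon of 2863 bases in 3 LPS+NMN, 2 LPS, 2 NMN and no control libraries. The control libraries listed one that began 680 bases further downstream. Nup54, a nuclear pore protein, and Ptpn9, a tyrosine phosphatase, each listed an annotated last exon in 1 of the groups and an exon on the opposite strand in the other.

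In all 9 treated and no control libraries were 24 last exons, of 23 genes, and 22 were in all 3 control and no treated library. Over all distinct last exons these were 29 (0.0809%) and 23 (0.0641%). The 24 include last exons of Csf3, a granulocyte growth factor, Ccl22, a chemokine, Mx1, an antiviral GTPase, Ifi206, an interferon-induced gene, and Dhx58, a sensor of viral RNA. These examples were chosen after their values were seen. Csf3, Ccl22, Mx1 and Ifi206 had no last exon in at least 1 control library, whereas each control library listed at least 2 others of Dhx58. In the 22 were coding last exons of Runx1, a transcription factor of blood cells, of 4659 bases, of Slc2a3, a glucose transporter, and of Kmo, which acts in the kynurenine route to NAD. Runx1, Slc2a3 and Kmo were also chosen after their values were seen.

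The main question of the series is what NMN changes in cells that receive LPS. Limma called 2 genes higher (0.033% of 6056) and 2 lower (0.033%). Higher were Slc17a5, a lysosomal sialic acid exporter, and the predicted gene Gm14308, and lower were Atat1, a tubulin acetyltransferase, and Fbxw7, a substrate receptor of a ubiquitin ligase. Of these 4, Fbxw7 alone had groups that did not overlap, with 4, 8 and 7 last exons in LPS and 2, 2 and 3 in LPS+NMN libraries (-1.11 ± 0.26, SE, limma adjusted p = 0.0397). It had 4, 9 and 3 in control and 6, 1 and 4 in NMN libraries, and 12 of its 15 last exons lie on the opposite strand. It was called in 10 of 20 settings, and not without LPS replicate 2 or 3 or any 1 LPS+NMN library (limma adjusted p between 0.0765 and 0.444). Without moderation limma called 10 genes, of which 0 were among these 4. Slc17a5 had 5, 1 and 1 in LPS and 5, 5 and 6 in LPS+NMN libraries, Atat1 6, 5 and 4 against 1, 4 and 1. The count of calls went from 1 to 7 with single libraries left out: 1 without LPS replicate 2 or LPS+NMN replicate 1 or 3, and 7 without control replicate 2, LPS replicate 3, NMN replicate 3 or LPS+NMN replicate 2. Whether NMN changed the number differently with and without LPS was tested as the difference of the differences. Limma called 7 genes in which the change with NMN was more positive in the presence of LPS (0.116%) and 7 in which it was more negative (0.116%). Cdk5rap2 (1.64 ± 0.38, limma adjusted p = 0.0215) and Mbtps2 (1.97 ± 0.38, limma adjusted p = 0.00171) led the first, and H2-M2 (-1.72 ± 0.38, limma adjusted p = 0.0137) and Gigyf2 (-1.59 ± 0.36, limma adjusted p = 0.0144), a translational repressor, were among the second. They were called in 11 of 20, 16 of 19, 20 of 20 and 13 of 20 alternative settings, and H2-M2 alone of the 14 also without moderation. In H2-M2 LPS+NMN differed from LPS by only -0.138 (limma adjusted p = 0.989), while the control libraries held no last exon. Mbtps2 was lost without LPS replicate 2 (limma adjusted p = 0.0657), Gigyf2 without control replicate 1 (0.362), LPS replicate 1 or 2 or NMN replicate 3 (0.0594 to 0.0657), and Cdk5rap2 without 7 of the 12 libraries.

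In presence 89 last exons were in all 3 LPS+NMN and no LPS libraries (0.396%; 0.338% of all last exons and 0.401% of all first exons) and 98 the reverse (0.436%; 0.363% and 0.27%), the fewest of the 4 comparisons in the sum of both directions. Without LPS+NMN replicate 1, 2 or 3 the first side was the larger, with 264 against 215, 281 against 203 and 276 against 208. The rule then asked for 2 LPS+NMN but 3 LPS libraries, so these counts cannot show which side is larger. Switching genes numbered 13 (0.145%), against 8 for first exons (0.0725%). In 9 both exons were on the annotated strand, and 2 of these 9 exchanged annotated last exons, Rps12 and Xpo4. The LPS+NMN libraries listed the same coding last exon of Rps12 as control. Xpo4, a nuclear export receptor named here after its values were seen, had its coding last exon in 0 control, 0 LPS, 3 NMN and 3 LPS+NMN libraries. Another Xpo4 last exon, of 382 bases, was in 2 control, 3 LPS, 0 NMN and 0 LPS+NMN libraries. An annotated transcript without a coding sequence has a last exon of this length there. A transcript marked for nonsense-mediated decay shares its acceptor. C4b, a complement component, had its coding last exon in 2 control, 0 LPS, 3 NMN and 3 LPS+NMN libraries. Nmt1, which attaches myristate to proteins, had its annotated last exon of 3165 bases in 1 control, 0 LPS, 1 NMN and 3 LPS+NMN libraries, and in the others one that began 2664 bases further downstream with the same end. Star, a carrier of cholesterol into mitochondria, listed its annotated last exon in 2 control, 3 LPS, 2 NMN and 0 LPS+NMN libraries. Il1a, the cytokine interleukin-1 alpha, had its coding last exon of 1290 to 2613 bases in 1 control, 0 LPS, 2 NMN and 3 LPS+NMN libraries. In the 3 LPS libraries, and no other, a last exon of 191 to 283 bases on the strand opposite to Il1a was listed in its place. Ppp2r3a, a regulatory subunit of a protein phosphatase, showed a similar exchange with the opposite strand.

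Slc7a11, which exchanges glutamate for cystine and so supplies glutathione, a defence against ferroptosis, had 7 distinct last exons, of which none was in more than 4 libraries. Its annotated coding last exon of 7429 bases (chromosome 3, 50326815, minus strand) was in the 3 LPS libraries and in none of the other 9. The same held for a retained-intron end of 3375 to 3393 bases. One LPS+NMN library listed an exon of 7427 bases whose acceptor lies 4 bases further downstream. In control and NMN libraries its last exons were short ones of 75 to 518 bases at no annotated acceptor, downstream of the annotated one. By number the gene had 2, 3 and 2 last exons with LPS and 1 in each of the other 9 libraries. Group-only listing of this kind was rare: 18 last exons were in the 3 LPS libraries alone (0.0502% of all last exons), 12 in the 3 NMN libraries (0.0335%), 10 in the 3 LPS+NMN libraries (0.0279%) and 22 in the 3 control libraries. The reverse, a last exon missing from the libraries of 1 group and present in the other 9, was met for 4 alternative last exons each with LPS, NMN and LPS+NMN. Over all distinct last exons the counts were 4 (0.0112%), 4 (0.0112%) and 5 (0.0139%).

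Slc3a2, the heavy chain that pairs with Slc7a11, had its annotated last exon of 1213 bases in 0 control, 3 LPS, 2 NMN and 3 LPS+NMN libraries. The control libraries listed only an exon of 197 to 205 bases on the opposite strand. Of the other ferroptosis genes followed whatever their value, Gpx4, Acsl4 and Fth1 had 1 last exon, the same in all 12 libraries, and so are not among the alternative last exons. Aifm2, which reduces ubiquinone to a radical trap in membranes, had 6, with 2, 1 and 2 in control, 2, 2 and 4 in LPS, 2, 4 and 5 in NMN and 3, 2 and 2 in LPS+NMN libraries, which overlap. Tfrc, the transferrin receptor, had 1 per library and its annotated last exon in 11. Of 26 ferroptosis regulators 14 had alternative last exons and 8 could be tested, and limma called 0 in each of the 4 comparisons. Their median log2 difference from control was 0.28 with LPS, 0 with NMN and 0 with LPS+NMN, and that of LPS+NMN from LPS was -0.15, while the median of all genes tested was 0. Of their 48 last exons, 3 were in all LPS and no control libraries and 1 the reverse, all of them of Slc7a11 and Slc3a2, beside 0.647% and 0.501% of all last exons listed in these 6 libraries. With NMN these counts were 0 and 1, beside 0.436% and 0.367% of all last exons. With LPS+NMN they were 1 and 1, beside 0.585% and 0.465%. For LPS+NMN against LPS they were 0 and 2, beside 0.338% and 0.363%, and both were of Slc7a11. The 48 are counted over all 12 libraries, the shares over last exons listed in the 6 compared. A gain of 1 last exon was almost never called on simulated data. Counts of 0 calls, in this list or those below, thus do not show that the numbers stayed the same.

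Of 21 genes of NAD synthesis and use 12 had alternative last exons, 5 could be tested and 0 were called in each comparison. Their median log2 difference from control was -0.19 with LPS, with NMN and with both, and that of LPS+NMN from LPS was 0, against 0 for all genes tested. Against control 0, 0 and 1 of the 5 had a higher and 3, 3 and 4 a lower mean number. Nampt and Nmnat1 had 1 last exon, in all 12 libraries. Nmnat3, the mitochondrial NAD synthase, had an annotated last exon of 1338 to 1358 bases in 0 control, 1 LPS, 3 NMN and 1 LPS+NMN libraries. Another of 312 bases was in 2 control, 2 LPS, 0 NMN and 1 LPS+NMN libraries. Naprt, the enzyme of the nicotinic acid route, had 7 distinct last exons and 1 in each library, none of them in more than 4 libraries. Sirt1, an NAD-dependent deacetylase, had its annotated last exon in 11.

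Of 40 type I interferon response genes 26 had alternative last exons, 20 could be tested and 0 were called in each comparison. After LPS 14 had a higher and 4 a lower mean number, with NMN 13 and 4, and with both 13 and 2. Over the 5797 genes tested these were 2045 and 2047, 2044 and 1928, and 2052 and 1999. Their median differences from control were 0.24, 0.19 and 0.19, against 0 for all genes tested. Of their 99 last exons, 5 were in all 3 LPS and no control libraries (Dhx58, Ifit3b, Mx1 and Sp100) and 0 the reverse, beside 0.647% and 0.501% of all last exons listed in these 6 libraries. With NMN 2 and with LPS+NMN 6 were in all treated and no control libraries, beside 0.436% and 0.585% of all. The reverse was 0 in both, beside 0.367% and 0.465%. The 99 are counted over all 12 libraries, the shares over last exons listed in the 6 compared. Ifit3b, an interferon-induced gene, had no last exon in the control libraries and 1 in each of the other 9. Even so it was not called with LPS, NMN or LPS+NMN (limma adjusted p = 0.279, 0.305 and 0.345). Irf7, Stat2, Irf9, Ifit1 and Ifit3 had 1 last exon, in all 12 libraries.

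Of 33 NFkB cytokines and regulators 20 had alternative last exons, 11 could be tested and 0 were called, with median differences from control of 0, 0.19 and 0. Tnf and Il1b had 1 last exon in every library. Il6 had 2 distinct last exons whose acceptors are both annotated, 1 in all 12 libraries and the other in all but control replicate 1. Il12b, the p40 chain shared by interleukins 12 and 23, had 0 last exons in each control library and 1 in each treated library. It too was not called with LPS, NMN or LPS+NMN (limma adjusted p = 0.279, 0.305 and 0.345). Its annotated last exon was in 0 control, 3 LPS, 2 NMN and 1 LPS+NMN libraries, and the remaining treated libraries listed another. Of 26 cleavage and polyadenylation factors, whose products cut transcripts at their ends, 12 had alternative last exons, 9 were tested and 0 called, and none of their 45 last exons was divided between the groups in any of the 4 comparisons. Their median difference was 0 in each. Cpsf6, a subunit of cleavage factor I, had 4 in 9 of 12 libraries, with 1 in control replicate 3, 2 in LPS replicate 3 and 3 in LPS+NMN replicate 1. Of 40 textbook genes with alternative last exons 37 were listed and 27 had 2 or more, with 14 tested, 0 called and none of 81 last exons divided between groups in these comparisons. Their medians were 0.17, 0.05 and 0 against control and -0.12 for LPS+NMN against LPS. Ifnar2, an interferon receptor chain with soluble and membrane forms, and Il1rap, the accessory chain of the interleukin-1 receptor, had 2 each and never both in the same library. Flt1, the VEGF receptor, had 5, with 1, 1 and 2 in control and 3, 1 and 1 in LPS libraries. Beside these counts of 0, limma gave an unadjusted p under 0.05 to 446, 390, 407 and 274 of the 5797 genes in the 4 comparisons in the order above, LPS+NMN against LPS last.

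The end of a last exon was compared where the acceptor was in all 12 libraries. Of 2966 such alternative last exons 1664 had the same length in every library, and 1302 were tested by limma on log2(length in bases), within a fit of 3254 last exons that also held those of genes with 1 last exon. Alternative last exons were called 0 times longer and 2 times shorter than in control, with each of the 3 treatments. Over all 3254 tested, 1 was called longer (0.0307%) and 5 shorter (0.154%) with LPS, and 1 longer (0.0307%) and 4 shorter (0.123%) in each of the other 2. The median difference was 0 throughout.

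Both calls were interferon-induced genes and changed in every treated library. Rtp4, a receptor transport protein, ended its last exon (chromosome 16, acceptor 23431631, plus strand) after 1342 bases in the 3 control libraries and after 856 bases in all 9 treated ones. The log2 difference was -0.65 (limma adjusted p = 1.66e-12 for LPS, 3.31e-12 for NMN and for LPS+NMN), and it was called in 16 of 16 alternative settings. Isg20, an exonuclease that degrades viral RNA, ended after 351 bases in control and 304 in all treated libraries (acceptor 78569794 on chromosome 7, plus strand; -0.21, limma adjusted p = 3.98e-08 for LPS). Both lengths of each gene are those of annotated transcripts, and the sequences at these ends are given above. With no spread within groups the test shows only that the listed lengths divided without exception, and since each treatment is set against the same 3 controls, the 3 comparisons are not independent. In LPS+NMN against LPS limma called 0 alternative last exons, with 25 of 1302 at an unadjusted p under 0.05, 1 of 3254 longer (0.0307%) and 0 shorter (0%) among all.

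**Figure D5:**
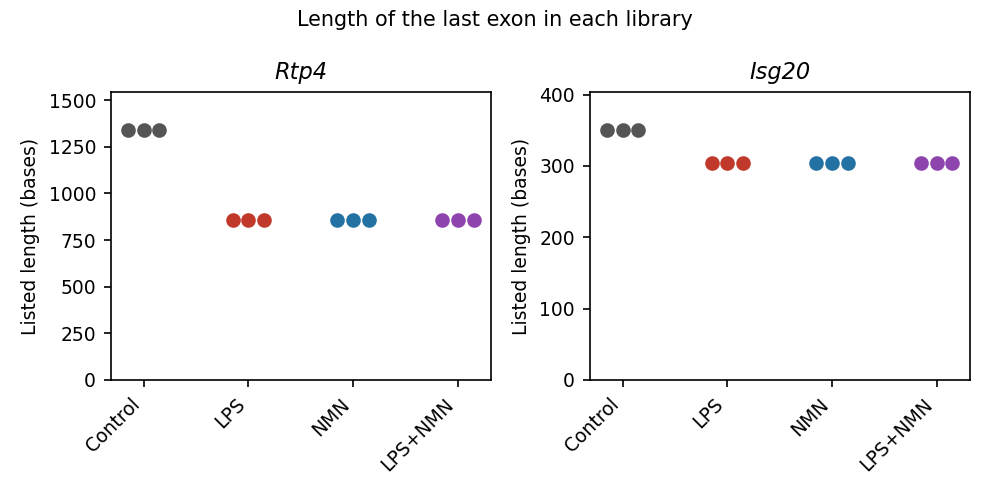
Listed length of the last exon in bases (y axis) of Rtp4 and Isg20 in each library (dots) by group (x axis). The 3 control libraries are at 1342 and 351 bases and the 9 treated libraries at 856 and 304 bases.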

How the data were processed

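The 12 deposited files list transcript events of each library, with type, gene, chromosome, start, end, pattern and strand, per the file headers. The deposited positions are genome coordinates and the authors' files hold no count, level, score or p-value, so depth is unknown. Tools named in the submitters' processing notes are HOMER, MACS2 2.1.0 and BWA 0.7.12, with the build GRCm38, and the program that made the lists is not named in the sources used here. The positions did not fall on GRCm38, so each gene was laid over GENCODE M21 by 1 shift that at least 3 exon boundaries shared. Positions are printed as the files give them, and sequences carry GRCm38 positions.

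The number of distinct last exons per gene was tested with limma 3.58.1 (R 4.3.3, trend and robust moderation) on log2(number + 1), for genes with a last exon in at least 3 libraries. All 4 groups entered 1 fit with 8 residual degrees of freedom, and p-values were adjusted by Benjamini-Hochberg over all genes tested, with a threshold of 0.05. The filter passed 8613 of the 8942 genes, of which 2816 did not vary over the 12 libraries and were left out of the test. Length was tested alike on log2(bases). Presence and switches were counted without a test. The limma script was tested on simulated data, where a gain of 1 last exon was almost never called and false calls were above the rate aimed at. Genes named are, per comparison, up to 5 with more and 5 with fewer last exons by size of difference. They were taken from called genes whose groups did not overlap. Named too are switching genes, set anchors, and all genes called for LPS+NMN against LPS or in the difference of differences. The others are said to be chosen after their values were seen. The members, gene lists and tests were chosen with earlier results of these data known. Alternatives were another pseudocount, other filters, no moderation, merged acceptors, 1 strand, 2 groups, the replicate number as a block, and each library left out.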

Additional observations from a re-analysis of the deposited data

Results flagged for a closer look

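The genes below are those in which the change of the number of last exons with NMN differed between cells with and without LPS, by the difference of the differences in limma. Camkk2 (-1.54, limma adjusted p = 0.0172), Ntng2 (-1.56, adjusted p = 0.0414), H2-M2 (-1.72, adjusted p = 0.0137) and Olfr132 (-1.53, adjusted p = 0.0451) had more last exons on average with NMN, with LPS and with both than in control. From LPS to LPS+NMN the differences of Camkk2, Ntng2, H2-M2 and Olfr132 were -0.249, 0.107, -0.138 and -0.195, and none was called. H2-M2 and Ntng2 had no last exon in any control library. In these genes a negative value thus does not show that NMN lowered the number in cells with LPS. H2-M2 was called in 20 of 20 alternative settings, Camkk2 in 13, Olfr132 in 9 and Ntng2 in 8 of 20. For 9030025P20Rik the difference was -1.85 (limma adjusted p = 0.00557), with 1 last exon in each control and each LPS+NMN library. For Gigyf2 it was -1.59 (limma adjusted p = 0.0144), called in 13 of 20 settings and at 0.362 without control replicate 1. For Trim30d, of an interferon-induced family, it was -1.45 (limma adjusted p = 0.0451), called in 8 of 20 settings and at 0.641 without control replicate 3. Of the 14 genes, H2-M2 alone was also called without trend and robust moderation.

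In the other direction Mbtps2 had a difference of 1.97 (limma adjusted p = 0.00171), and was called in 16 of 19 settings. Cdk5rap2 had 1.64 (limma adjusted p = 0.0215), with fewer last exons in LPS and in most NMN libraries than in control and 3, 2 and 3 with both. Gatb, a subunit of a mitochondrial amidotransferase, had 1.53 (limma adjusted p = 0.0414), with 3, 3 and 2 in control, 1, 1 and 3 with LPS, 1 in each NMN and 3 in each LPS+NMN library. Iqsec1, an exchange factor for ARF GTPases, also had 1.53 (limma adjusted p = 0.0414), and Nrp2, a semaphorin receptor, 1.45 (limma adjusted p = 0.0414). Cd70, a ligand of the TNF family, and the predicted gene Gm3435 had 0.92 each (limma adjusted p = 0.0414), and all 4 last exons of Cd70 lie on the opposite strand. Cdk5rap2 and Nrp2 were called in 11, Gatb and Iqsec1 in 9 and Cd70 in 7 of 20 settings. With single libraries left out the adjusted p by limma was up to 0.137 for Cdk5rap2 (without NMN replicate 3), 0.517 for Nrp2 (LPS replicate 2), 0.217 for Gatb (LPS replicate 2), 0.268 for Iqsec1 (LPS replicate 2) and 0.726 for Cd70 (NMN replicate 1). With merged acceptors the difference of Nrp2 was 0.79 (limma adjusted p = 0.684).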

How the results depend on the processing

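The files hold no counts, so absence from a list limits every presence result and no floor can be given. With 3 libraries a group, single exons could not be tested. The order of values is LPS, NMN and LPS+NMN against control, then LPS+NMN against LPS, then the difference of differences. No difference of a named gene changed sign. Genes called by number were 20, 12, 17, 4 and 14. They were 3, 2, 3, 0 and 1 with at least 2 last exons in 3 libraries, 37, 33, 38, 10 and 27 without trend and robust moderation (of which 2, 2, 4, 0 and 1 were among the first), and 10, 5, 8, 0 and 7 without genes on both strands. With only the 2 groups compared, LPS+NMN against LPS gave 13. Leaving out 1 library gave 11 to 27, 8 to 19, 10 to 19, 1 to 7 and 1 to 21. The difference of differences gave 6 without control replicate 1, NMN replicate 1 or LPS+NMN replicate 2, 9 without LPS replicate 3 and 1 without LPS replicate 2. The cause was not tested.

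Last exons called by length were 2, 2, 2 and 0. They were 19, 12, 13 and 9 where a listing in at least 2 libraries of each group sufficed, and 9, 12, 10 and 5 with only the 2 groups compared. Leaving out 1 library gave 2 to 10, 2 to 10, 2 to 10 and 0 to 6, with 10 in each comparison with control when control replicate 3 was left out and 6 without LPS+NMN replicate 2. More last exons enter the test in these settings.

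Switching genes were 21, 9, 20 and 13. Without genes on both strands there were 10 for LPS and 12 for LPS+NMN against control, on the annotated strand alone 12 and 13, and among last exons in at least 4 libraries 8 for LPS+NMN against LPS. With 1 library left out, which asks for 2 libraries in place of 3, they were 41 to 67, 36 to 50, 44 to 64 and 36 to 52. Exons in 1 group only went from 301, 206, 271 and 187 to 575 to 650, 497 to 549, 569 to 631 and 434 to 484, and the group left with 2 libraries then had more of them than the other in each comparison. The difference of last from first exons per gene was -0.454 without genes on both strands, and -0.427 to -0.423 with 1 library left out. The share with 2 or more last exons differed between LPS and control by -0.967 to -0.666 points.

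Replicate numbers are shared by the groups, but deviations of same-numbered libraries were not correlated (-0.0286 to 0.0188), and 3 of 12 libraries correlated best with their own number. With a replicate block, limma called 24, 13, 18, 5 and 15 genes by number and 2, 2, 2 and 0 exons by length. The call of Fbxw7 was lost under it (adjusted p = 0.101).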
